A study of Homo sapiens with 18 samples.

Results

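The genes described are the expressed ZNF zinc finger genes of 3 metastatic breast cancer cell lines. They were chosen by their symbol, ZNF followed by a number and at most 1 letter, and by a mean raw read count of at least 500 over all 18 libraries. This rule kept 187 of the 550 ZNF genes among the 58815 genes counted, and 527 of the 550 had at least 1 count. Among all genes, 8763 reached the same floor. Just inside the floor were ZNF354A, ZNF470 and ZNF528 with mean counts of 500.1, 504.3 and 507.8, and just outside were ZNF100, ZNF783 and ZNF354C with 499.6, 498.3 and 494.8. All 187 members passed the expression filter of the test, together with 210 ZNF genes below the floor.

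The cells were LM2, BrM3 and BoM, derivatives of the human triple-negative line MDA-MB-231 that were selected in mice for metastasis to lung, brain and bone. BrM3 came from the line BrM2 by a further selection in mice, and the labels write BrM2. Samples were assigned to groups by their titles, with which some of the source labels conflict. Each line carried a doxycycline-inducible hairpin, either shWDR5-1 against WDR5 or the control shCtrl, and both arms received doxycycline at 1 µg/mL for 3 days. There were 3 replicates in each of the 6 groups, harvested at different passages, so the spread between replicates holds that between passages together with that between libraries. A single hairpin against WDR5 was used, and each library is RNA of a whole culture, in which fewer cells with a transcript and less of it per cell cannot be told apart. The libraries held 17485841 to 119667013 counts. VIM, CD44 and AXL, markers of this mesenchymal cell type, were at 1494.6 to 2231, 498 to 765 and 712 to 1734 CPM (counts scaled to the size of each library, with TMM factors) over the libraries, while ESR1, CDH1 and PTPRC stayed at or below 1.06 CPM. Other markers of luminal, epithelial and endothelial cells were detected, ERBB2 at 41.5 to 83.4, GATA3 at 4.74 to 9.24, EPCAM at 4.39 to 10.1 and PECAM1 at 0.848 to 4.67 CPM. In the mean over the lines EPCAM fell with shWDR5 by 0.60 ± 0.072 (SE) on the log2 scale, PECAM1 rose by 0.41 ± 0.12 and VIM by 0.20 ± 0.058 (edgeR adjusted p 8e-06, 0.012 and 0.012). Their part in the results on ZNF genes was not tested. WDR5 itself was at 113, 128 and 134 CPM with shCtrl and 24.3, 24.4 and 20.5 CPM with shWDR5 in LM2, at 85.5, 93.3 and 79.4 CPM with shCtrl and 20.8, 21.3 and 23.5 CPM with shWDR5 in BrM3 and at 87.5, 90.5 and 90.4 CPM with shCtrl and 14.01, 21.1 and 22.1 CPM with shWDR5 in BoM. It fell in every line on the log2 scale, by 2.43 ± 0.14 in LM2, 1.97 ± 0.14 in BrM3 and 2.24 ± 0.14 in BoM.

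C2H2 zinc finger proteins form the largest family of human transcription factors, and each finger is a small zinc-bound fold that contacts a few bases of DNA, so that an array of fingers reads a longer site. Many members carry an N-terminal KRAB domain, which recruits TRIM28 and through it the histone methyltransferase SETDB1 and heterochromatin proteins to silence the bound locus, often a transposable element. KRAB zinc finger genes lie in clusters on chromosome 19 that arose by tandem duplication. WDR5 is a shared subunit of the MLL and SET1 complexes that methylate histone H3 at lysine 4 at active promoters.

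The symbol ZNF does not define 1 protein family, and the translated coding sequences showed this. Of the 187 members, 92 encoded a KRAB A box, 91 were protein-coding without it and 4 were pseudogenes (ZNF826P, ZNF702P, ZNF271P and ZNF252P). The coding members held a median of 10 and at most 36 C2H2 fingers. The pattern found no finger in ZNF330, a nucleolar protein, in ZNF185, an actin-associated protein with a LIM domain, or in ZNF703, an oncogene of luminal breast cancer. Chromosome 19 carried 70 of the members. Mean levels ran from 11.3 to 222 CPM, with a median of 20.8 beside 31.4 over all 12081 tested genes; the floor of the rule sets the lower end of this range. Per kilobase of transcript, the highest mean levels were those of ZNF146 (50.9 CPM per kilobase), a protein made almost wholly of fingers, ZNF185 (48.4), ZNF76 (37.4), ZNF664 (36.2), ZNF330 (32.5), ZNF706 (30.03), ZNF22 (26.5) and ZNF131 (25.2). None of these 8 encoded a KRAB A box.

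The 4 of 187 members that were called lower in all 3 lines after WDR5 knockdown (beside 3.25% of all tested genes, and also the 4 called lower in at least 2 lines, beside 7.32%) are described first, and their promoters are shown because these genes moved together. A gene is called higher or lower where the edgeR quasi-likelihood test across all 12081 tested genes gave a Benjamini-Hochberg adjusted p under 0.05. Each sequence is the 250 bases before the RefSeq start (GRCh38.p14), 5′ to 3′ on the strand of the gene, at chr19:34677428-34677677, plus strand for ZNF302, chr2:95159586-95159835, minus strand for ZNF514, chr19:8832305-8832554, minus strand for ZNF558 and chr16:30526567-30526816, minus strand for ZNF768. RefSeq and GENCODE place the starts of these genes differently. By the GENCODE bounds given below, the windows of ZNF514 and ZNF768 lie wholly inside the gene. Those of ZNF302 and ZNF558 reach into it in part. The windows are thus upstream of the RefSeq start only, and which start these cells use was not tested. Capitals mark the letters of a GC box (GGGCGG) or an ETS core (CCGGAAG) on either strand.
ZNF302: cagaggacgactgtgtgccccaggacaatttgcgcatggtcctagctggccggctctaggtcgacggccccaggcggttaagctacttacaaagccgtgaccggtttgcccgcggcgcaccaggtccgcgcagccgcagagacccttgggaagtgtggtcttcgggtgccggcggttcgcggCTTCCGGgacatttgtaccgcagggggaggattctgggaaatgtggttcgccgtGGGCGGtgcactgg
ZNF514: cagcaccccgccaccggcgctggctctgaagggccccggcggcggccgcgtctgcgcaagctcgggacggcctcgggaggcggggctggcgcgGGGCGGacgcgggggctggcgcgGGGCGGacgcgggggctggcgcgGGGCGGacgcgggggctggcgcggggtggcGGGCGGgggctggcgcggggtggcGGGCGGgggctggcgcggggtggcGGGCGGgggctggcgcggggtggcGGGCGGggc
ZNF558: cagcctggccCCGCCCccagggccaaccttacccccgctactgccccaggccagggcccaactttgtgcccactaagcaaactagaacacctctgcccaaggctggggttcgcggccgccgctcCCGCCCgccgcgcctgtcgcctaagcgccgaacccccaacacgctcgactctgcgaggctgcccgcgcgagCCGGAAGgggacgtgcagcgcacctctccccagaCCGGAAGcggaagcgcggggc
ZNF768: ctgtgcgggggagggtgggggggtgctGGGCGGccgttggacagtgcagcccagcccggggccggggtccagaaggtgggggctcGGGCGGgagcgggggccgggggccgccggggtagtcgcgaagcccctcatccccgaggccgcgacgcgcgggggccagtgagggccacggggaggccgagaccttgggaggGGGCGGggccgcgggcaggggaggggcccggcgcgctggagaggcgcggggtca

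All 4 windows held a GC box, with 1 match in ZNF302, 7 in a tandem repeat in ZNF514, 2 in ZNF558 and 3 in ZNF768, and their GC content was 64.8%, 88%, 72% and 81.2%. ZNF302 held 1 and ZNF558 held 2 ETS cores. Of the 187 members, 154 had a promoter in the RefSeq table. A GC box was in 60.4% of these and in 42.3% of all 27305 promoters, and an ETS core in 31.2% and 8.82%. The E-box CACGTG was in 4.55% and 6.49%, and the cyclic AMP response element TGACGTCA in 4.55% and 1.77%. The median GC content of the windows was 62% for the members and 58% for all promoters. The 17 members with a promoter that were called lower in the mean of the 3 lines held a GC box in 64.7%, an ETS core in 41.2% and a cyclic AMP response element in 0%. For the 21 called higher the shares were 76.2%, 28.6% and 14.3%, and neither list held the E-box. These matches are descriptions of letters, and binding was not measured.

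ZNF768 (ENSG00000169957, chr16:30524004-30526821, minus strand in hg38 by GENCODE 44) encodes 10 fingers behind a repeat that resembles the C-terminal domain of RNA polymerase II, and no KRAB A box. It was at 14.2, 20.1 and 24.03 CPM with shCtrl and 9.11, 9.51 and 13.2 CPM with shWDR5 in LM2. The values were 18.7, 24.4 and 18.7 CPM with shCtrl and 11.2, 13.2 and 13.4 CPM with shWDR5 in BrM3, and 17.3, 22.9 and 16.6 CPM with shCtrl and 9.47, 9.15 and 8.24 CPM with shWDR5 in BoM. Every shWDR5 library of a line lay below every one of its shCtrl libraries in each of the 3 lines, although in LM2 the highest shWDR5 value and the lowest shCtrl value were 13.2 and 14.2 CPM. The log2 fold changes in LM2, BrM3 and BoM were -0.90 ± 0.19 (SE), -0.70 ± 0.19 and -1.08 ± 0.19, with edgeR quasi-likelihood adjusted p of 0.008, 0.023 and 0.0011. It was the member with the lowest log2 fold change in each line. The LM2 call was lost without LM2 shCtrl replicate 3 or LM2 shWDR5 replicates 1 or 2 (edgeR adjusted p up to 0.056) and the BrM3 call without BrM3 shCtrl replicate 2 or BrM3 shWDR5 replicates 1, 2 or 3 (edgeR adjusted p up to 0.12). The mean over the 3 lines was -0.89 ± 0.11 with an edgeR adjusted p of 9.7e-06, and -0.76 once the trend of log2 CPM with GC content was removed from each library and the correction centred.

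ZNF302 (ENSG00000089335, chr19:34677639-34686397, plus strand) and ZNF558 (ENSG00000167785, chr19:8806170-8832314, minus strand) are KRAB zinc finger genes of chromosome 19 with 7 and 9 fingers. ZNF302 was at 36.1, 32.3 and 34.6 CPM with shCtrl and 22.1, 26.5 and 20.8 CPM with shWDR5 in LM2. It was at 40.5, 35.1 and 37.4 CPM with shCtrl and 31.1, 22.9 and 21.5 CPM with shWDR5 in BrM3, and at 30.01, 34.9 and 37.1 CPM with shCtrl and 24.4, 25.2 and 27.5 CPM with shWDR5 in BoM. The groups did not overlap in any line, and BoM had the narrowest gap. The log2 fold changes of ZNF302 were -0.56 ± 0.13, -0.59 ± 0.13 and -0.40 ± 0.13 in LM2, BrM3 and BoM (edgeR adjusted p 0.015, 0.0084 and 0.0477), and over the lines the mean was -0.52 ± 0.076 (edgeR adjusted p 6.2e-05). For ZNF302, the LM2 call was lost without LM2 shCtrl replicate 3 or LM2 shWDR5 replicates 1 or 3 (edgeR adjusted p up to 0.077), the BrM3 call without BrM3 shWDR5 replicate 3 (edgeR adjusted p up to 0.057) and the BoM call without LM2 shCtrl replicates 2 or 3, LM2 shWDR5 replicate 1, BrM3 shCtrl replicates 1, 2 or 3, BrM3 shWDR5 replicate 2, BoM shCtrl replicates 2 or 3 or BoM shWDR5 replicates 1, 2 or 3 (edgeR adjusted p up to 0.14). ZNF558 was at 22.95, 19.6 and 21.3 CPM with shCtrl and 16.3, 17.01 and 15.2 CPM with shWDR5 in LM2. In BrM3 it was at 17.6, 15.7 and 17.6 CPM with shCtrl and 13.2, 11.4 and 11.3 CPM with shWDR5, and in BoM at 17.4, 18.2 and 18.99 CPM with shCtrl and 11.6, 12.5 and 14.2 CPM with shWDR5. Again no shWDR5 library reached a shCtrl library of its line. The log2 fold changes of ZNF558 were -0.39 ± 0.10, -0.51 ± 0.10 and -0.51 ± 0.10 (edgeR adjusted p 0.029, 0.0046 and 0.0031), with a mean of -0.47 ± 0.060 (edgeR adjusted p 1.4e-05). The LM2 call of ZNF558 was lost without LM2 shCtrl replicates 1 or 3 or LM2 shWDR5 replicates 1, 2 or 3 (edgeR adjusted p up to 0.097).

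ZNF514 (ENSG00000144026, chr2:95122087-95165668, minus strand) is a KRAB zinc finger gene with 7 fingers. It was at 13.4, 15.04 and 13.4 CPM with shCtrl and 8.62, 10.9 and 6.98 CPM with shWDR5 in LM2. The values were 23.5, 20.3 and 21.7 CPM with shCtrl and 17.9, 13.6 and 12.9 CPM with shWDR5 in BrM3 and 16.8, 17.3 and 16.2 CPM with shCtrl and 14.4, 9.73 and 10.7 CPM with shWDR5 in BoM. The groups did not overlap in any line. Its log2 fold changes were -0.64 ± 0.16, -0.57 ± 0.16 and -0.52 ± 0.16 (edgeR adjusted p 0.026, 0.032 and 0.039), with a mean of -0.58 ± 0.095 (edgeR adjusted p 0.00017). Other genes share 32.2% of the 50-base stretches of its transcript, so that its count is less certain than those of ZNF558 (1.42%) or ZNF768 (3.71%). With any 1 of the 18 libraries left out, all 4 genes stayed called in the mean over the lines. Within single lines, ZNF768 in BoM and ZNF558 in BrM3 and BoM also stayed called in all 18 such fits, whereas the LM2 call of ZNF514 was lost without LM2 shCtrl replicates 2 or 3 or LM2 shWDR5 replicates 1 or 3 (edgeR adjusted p up to 0.11), its BrM3 call without BrM3 shCtrl replicates 1, 2 or 3, BrM3 shWDR5 replicates 2 or 3 or BoM shCtrl replicate 1 (edgeR adjusted p up to 0.14) and its BoM call without BrM3 shCtrl replicate 3, BoM shCtrl replicates 1, 2 or 3 or BoM shWDR5 replicates 2 or 3 (edgeR adjusted p up to 0.15).

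**Figure D1:**
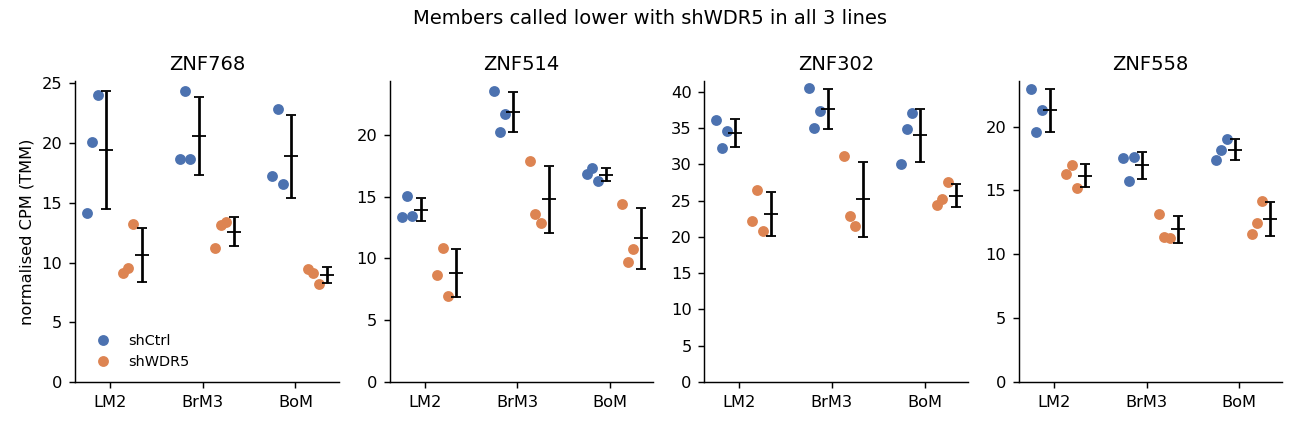
Normalised CPM (y axis, linear from 0) of ZNF768, ZNF514, ZNF302 and ZNF558 in each library, by line (x axis) and hairpin (colour), with the mean and SD of 3 replicates as bars beside the points. In every panel the 3 shWDR5 points of a line lie below its 3 shCtrl points; for ZNF768 the group means are 18.9 and 8.95 CPM in BoM.

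In all 3 lines, 0 members were called higher, beside 0.753% of all tested genes, and 2 were in at least 2 lines, beside 2.06%. Both of these were called in LM2 and BoM. ZNF702P (ENSG00000242779, chr19:52966896-53037898, minus strand), a transcribed pseudogene, was at 15.7, 12.8 and 12.4 CPM with shCtrl and 24.3, 24.5 and 17.4 CPM with shWDR5 in LM2. It was at 13.4, 10.8 and 11.4 CPM with shCtrl and 20.2, 16.1 and 14.9 CPM with shWDR5 in BrM3 and at 15.6, 12.6 and 14.5 CPM with shCtrl and 27.7, 19.6 and 19.01 CPM with shWDR5 in BoM. The groups did not overlap in any line. The log2 fold change was 0.71 ± 0.17 in LM2 and 0.64 ± 0.17 in BoM (edgeR adjusted p 0.018 and 0.018), and 0.52 ± 0.17 in BrM3, where the edgeR adjusted p was 0.065. The LM2 call was lost without LM2 shCtrl replicates 2 or 3 or LM2 shWDR5 replicates 1 or 2 (edgeR adjusted p up to 0.094) and the BoM call without BoM shCtrl replicate 2 or BoM shWDR5 replicate 1 (edgeR adjusted p up to 0.088). Of its 50-base stretches, 16.5% occur in other genes. ZNF804A (ENSG00000170396, chr2:184598529-184939492, plus strand), a gene at a locus associated with schizophrenia that encodes 1 finger, was at 13.8, 11.9 and 12.1 CPM with shCtrl and 18.4, 18.7 and 17.4 CPM with shWDR5 in LM2. It was at 20.6, 18.5 and 20.8 CPM with shCtrl and 27.4, 23.3 and 21.3 CPM with shWDR5 in BrM3, and at 28.1, 25.5 and 28.8 CPM with shCtrl and 39.99, 40.1 and 32.7 CPM with shWDR5 in BoM. Its log2 fold change was 0.54 ± 0.11 in LM2 and 0.45 ± 0.11 in BoM (edgeR adjusted p 0.0079 and 0.01), and 0.26 ± 0.11 in BrM3 (edgeR adjusted p 0.16). The BoM call was lost without BoM shCtrl replicate 2 (edgeR adjusted p up to 0.056). In no line did the groups overlap. With shCtrl its level was lowest in LM2 and highest in BoM, and its 3 pairs of lines all differed (edgeR adjusted p 0.00011, 2.9e-07 and 0.004 for BrM3 against LM2, BoM against LM2 and BoM against BrM3).

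In the mean over the 3 lines, ZNF280C, a homolog of the fly insulator protein suppressor of Hairy-wing, rose by 0.57 ± 0.10 on the log2 scale (edgeR adjusted p 0.00038). It was at 13.3, 8.63 and 11.3 CPM with shCtrl and 22.8, 16.5 and 15.4 CPM with shWDR5 in BoM, the line in which it was called. ZNF185 rose by 0.29 ± 0.063 (edgeR adjusted p 0.0019) and was the only member called higher in BrM3, at 192, 186 and 191 CPM with shCtrl and 215, 259 and 268 CPM with shWDR5. ZNF131, which joins a BTB domain to 5 fingers, rose by 0.25 ± 0.049, and ZNF83 by 0.33 ± 0.075 (edgeR adjusted p 0.00093 and 0.0027). The call of ZNF280C in BoM was lost without BoM shCtrl replicate 2 or BoM shWDR5 replicate 1 (edgeR adjusted p up to 0.068), that of ZNF185 in BrM3 without BrM3 shCtrl replicates 1, 2 or 3 or BrM3 shWDR5 replicates 2 or 3 (edgeR adjusted p up to 0.13) and that of ZNF131 in BoM without BoM shCtrl replicate 2 (edgeR adjusted p up to 0.055), whereas ZNF83 stayed called in BoM in all 18 fits. In BoM, ZNF655 and the KRAB gene ZNF75A were also called higher, by 0.39 ± 0.10 and 0.42 ± 0.10, and the call of ZNF655 was lost without BoM shCtrl replicate 2 or BoM shWDR5 replicate 3 (edgeR adjusted p up to 0.066). Among the members called lower in the mean, ZNF589 had a log2 fold change of -0.47 ± 0.094 and ZNF518A of -0.44 ± 0.094 (edgeR adjusted p 0.00096 and 0.0016). ZNF589 passed in no single line, with edgeR adjusted p of 0.076, 0.12 and 0.0501, and ZNF518A in BrM3 alone. ZNF268 was also called lower in BrM3, by a log2 fold change of -0.55 ± 0.16 (edgeR adjusted p 0.038), although the highest shWDR5 library, at 15.3 CPM, lay above the lowest shCtrl library, at 14.6 CPM. The call of ZNF518A in BrM3 was lost without BrM3 shCtrl replicates 1 or 3 or BrM3 shWDR5 replicates 2 or 3 (edgeR adjusted p up to 0.11) and that of ZNF268 without LM2 shCtrl replicate 2, LM2 shWDR5 replicate 1, BrM3 shCtrl replicates 1 or 3, BrM3 shWDR5 replicates 2 or 3 or BoM shCtrl replicate 1 (edgeR adjusted p up to 0.17).

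As a group the members did not move in 1 direction, and without GC correction calls among them were few. With shWDR5 in LM2, 2 members were called higher and 4 lower, which is 1.07% and 2.14% of the 187, beside 1.48% and 4.78% of all tested genes (edgeR quasi-likelihood test, adjusted p under 0.05). In BrM3, 1 member was called higher and 7 lower, beside 2.87% and 7.87% of all tested genes. In BoM, 10 were called higher and 5 lower, beside 5.41% and 10.7%. In the mean over the 3 lines, 24 were called higher and 19 lower, or 12.8% and 10.2%, beside 15.6% and 19.9%. The share of members called lower was below that of all tested genes in all 4 comparisons, and so was the share called higher, by little in BoM (5.35%). Tested genes over the floor were called higher and lower in 1.52% and 3.06% in LM2 and 3.54% and 4.45% in BrM3. In BoM these shares were 6.24% and 6.98%, and in the mean 18.97% and 13.7%. The members' shares were below these as well, by less for the lower calls. The median log2 fold changes of the members in the order LM2, BrM3, BoM and mean were -0.023, -0.0093, 0.045 and 0.010, beside -0.00091, -0.0054, 0.015 and 0.0028 over all tested genes and 0.032, 0.039, 0.054 and 0.044 over those with a mean raw count of at least 500. The log2 fold changes of the members lay between -1.08 and 0.72 in BoM. In the mean over the lines 5 members (2.67%) had a change of at least 0.5 in either direction, beside 9.07% of all tested genes and 3.42% of those over the floor. Leaving out 1 library moved the counts of single lines. LM2 gave between 0 (without LM2 shCtrl replicate 3) and 5 (without BrM3 shWDR5 replicate 1) lower members and between 1 (without LM2 shCtrl replicate 2) and 3 (without LM2 shCtrl replicate 1) higher. BrM3 gave between 1 (without BrM3 shWDR5 replicate 3) and 13 (without BrM3 shWDR5 replicate 1) lower and 0 (without BrM3 shCtrl replicate 1) to 2 (without LM2 shWDR5 replicate 3) higher, and BoM between 2 (without BoM shCtrl replicate 2) and 13 (without BrM3 shWDR5 replicate 1) higher and 2 to 8 lower (without the same libraries). The treatment of GC content changed which direction held more calls in the mean over the lines and in BrM3, whereas LM2 had more lower and BoM more higher calls with and without it. With the GC trend of each library removed and centred, the mean over the lines gave 30 higher and 38 lower members (16.04% and 20.3%), beside 21.5% and 25.7% of all tested genes. LM2 then gave 6 and 21 (3.21% and 11.2%), beside 5.57% and 10.4%, and BrM3 7 and 18 (3.74% and 9.63%), beside 7.64% and 14.6%. With the trend removed without centring, the mean gave 52 and 22 (27.8% and 11.8%), beside 31.5% and 20.6%. LM2 gave 8 and 11 (4.28% and 5.88%), beside 8.8% and 8.48%, and BrM3 17 and 12 (9.09% and 6.42%), beside 13.9% and 10.9%. BoM gave 20 and 14 (10.7% and 7.49%) with centring, beside 10.7% and 15.5%, and 27 and 9 (14.4% and 4.81%) without, beside 16.2% and 13.1%. With centring, tested genes over the floor were called higher and lower in 26.4% and 19.8% in the mean and 6.72% and 7.70% in LM2. In BrM3 these shares were 9.59% and 10.1%, and in BoM 12.9% and 11.6%. With centring, the members' share called lower in LM2 was thus above both backgrounds. In the mean it was above that of the genes over the floor, by little.

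**Figure D2:**
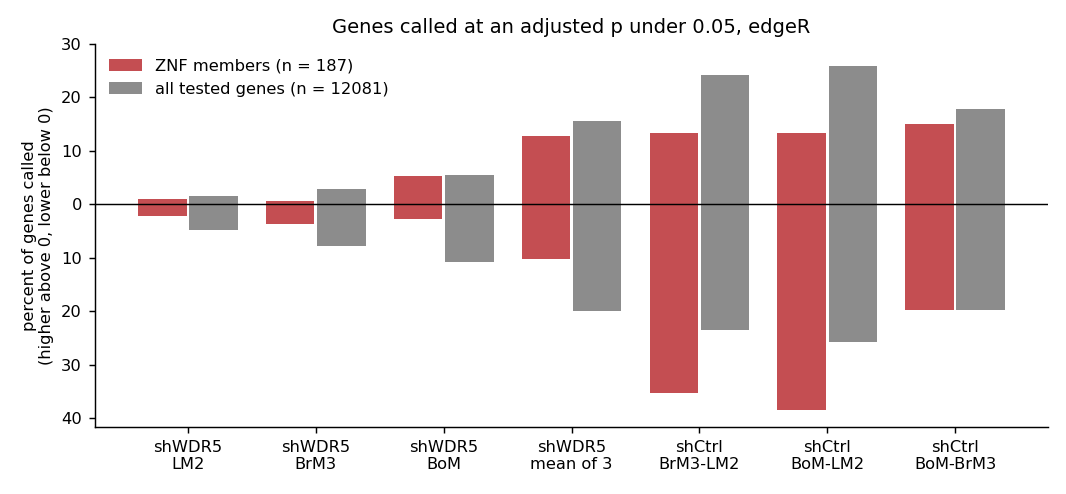
Percent of genes (y axis, higher above 0 and lower below 0) called at an edgeR adjusted p under 0.05 in each comparison (x axis), for the 187 ZNF members and all 12081 tested genes. For shWDR5 the members' bars are the shorter ones in both directions, and between shCtrl lines the members' bars for lower in BrM3 and in BoM than in LM2 reach 35.3% and 38.5%.

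The response to shWDR5 was compared between lines by the interaction in the same edgeR fit, and 0 members were called. The background was 0.00828% of tested genes for BrM3 against LM2, 0% for BoM against LM2 and 0.00828% for BoM against BrM3. At an unadjusted edgeR p under 0.05 there were 0, 5 and 3 members, or 0%, 2.67% and 1.60%, beside 2.91%, 5.17% and 2.89% of all tested genes. DESeq2 called 0 members in each. With the GC trend removed and centred, 1 member, ZNF512B, was called for BrM3 against LM2, beside 0.108% of tested genes. ZNF512B, which binds the nucleosome remodelling complex NuRD, was at 17.1, 26.96 and 30.1 CPM with shCtrl and 14.8, 14.8 and 19.03 CPM with shWDR5 in LM2, 66.9, 88.2 and 71.8 CPM with shCtrl and 56.9, 75.7 and 77.3 CPM with shWDR5 in BrM3 and 36.3, 38.3 and 27.8 CPM with shCtrl and 21.95, 23.1 and 22.2 CPM with shWDR5 in BoM. Without GC correction its log2 fold changes in LM2, BrM3 and BoM were -0.63 ± 0.19, -0.11 ± 0.18 and -0.61 ± 0.19, and the edgeR adjusted p was 0.058, 0.77 and 0.034. The BoM call was lost without BoM shCtrl replicates 1 or 2 or BoM shWDR5 replicates 1, 2 or 3 (edgeR adjusted p up to 0.13). The hairpin groups overlapped in BrM3 and did not overlap in BoM, and in LM2 the highest shWDR5 library lay above the lowest shCtrl library.

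Split by domain, the 92 members with a KRAB A box and the 91 coding members without it held different numbers of calls. In the mean over the lines, 5 KRAB members were called higher and 13 lower, or 5.43% and 14.1%, whereas 18 members without KRAB were called higher and 5 lower, or 19.8% and 5.49%. The shares were 15.6% and 19.9% of all tested genes, and 18.97% and 13.7% of those over the floor. The KRAB share called lower and the share without KRAB called higher were thus near those of genes over the floor. The medians of the KRAB members and of the others were -0.025 and 0.041. In LM2, BrM3 and BoM they were -0.068, -0.040 and 0.023 for KRAB members and 0.00011, 0.040 and 0.090 for the others. With the GC trend removed and centred, the counts were 6 and 26 for KRAB members and 23 and 10 for the others, or 6.52% and 28.3% and 25.3% and 10.99%, beside 21.5% and 25.7% of all tested genes and 26.4% and 19.8% of those over the floor. The 4 genes called lower in all lines lay on both sides of the split, since ZNF302, ZNF514 and ZNF558 encode a KRAB A box and ZNF768 does not. Within the KRAB members, 11 of the 40 outside chromosome 19 and 2 of the 52 on it were called lower, or 27.5% and 3.85%, with medians of -0.092 and 0.032. The share called lower was 19.9% of all tested genes and 13.7% of those over the floor. It was 19.7% of the tested genes on chromosome 19 that are no ZNF gene. No test compared these subsets, which were formed with results of these data known.

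**Figure D3:**
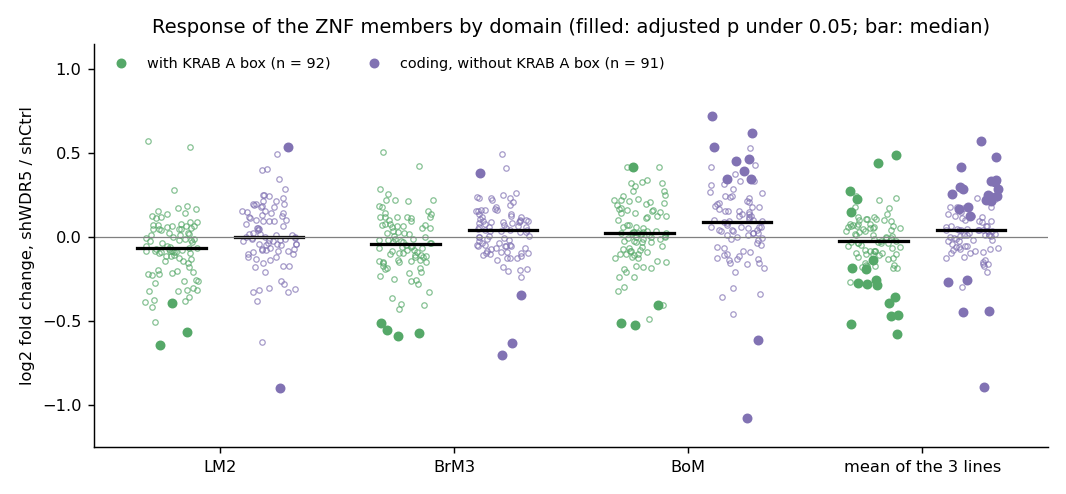
Log2 fold change of shWDR5 against shCtrl (y axis) of each member with a KRAB A box and each coding member without it, in each line and in the mean of the lines (x axis); filled points have an edgeR adjusted p under 0.05 and bars are medians. In the mean, the called points with KRAB are 5 above and 13 below 0, and those without are 18 above and 5 below.

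By role, 7 members act on translation, ribosomes or RNA, and in the mean over the lines 1 was called higher and 0 lower. The background for this and the next lists was 15.6% higher and 19.9% lower of all tested genes. For the lists of members, tested genes over the floor gave 18.97% and 13.7%. The called member was ZNF207, a spindle and splicing protein, at 0.13 ± 0.049 (edgeR adjusted p 0.0497) and the call was lost without LM2 shCtrl replicates 2 or 3, LM2 shWDR5 replicates 1, 2 or 3, BrM3 shCtrl replicates 1 or 2, BrM3 shWDR5 replicates 1, 2 or 3, BoM shCtrl replicates 1 or 2 or BoM shWDR5 replicates 1 or 3 (edgeR adjusted p up to 0.11). ZNF598, the ubiquitin ligase that senses collided ribosomes, was at 0.11 ± 0.18 and ZNF622, a maturation factor of the large ribosomal subunit, at 0.021 ± 0.066, and neither passed. Of 11 members of chromatin complexes without KRAB, 0 were called higher and 2 (18.2%) lower, ZNF512B at -0.45 ± 0.11 and ZNF518A at -0.44 ± 0.094. ZNF217, an oncogene of breast cancer that binds the corepressor CtBP, was at -0.039 ± 0.067 and did not pass, nor did the ZMYND8 partners ZNF592, ZNF687 and ZNF532, at 0.13 ± 0.060, -0.17 ± 0.079 and -0.10 ± 0.072. Of 12 sequence-specific activators or repressors without KRAB, 4 (33.3%) were called higher and 0 lower. They were ZNF131, ZNF143 at 0.18 ± 0.056, an activator of small nuclear RNA and coding promoters, ZNF521 at 0.26 ± 0.069, and ZNF335 at 0.28 ± 0.10, a subunit of an H3K4 methyltransferase complex. The call of ZNF335 was lost without LM2 shCtrl replicate 1, LM2 shWDR5 replicate 3, BrM3 shCtrl replicates 1 or 3, BrM3 shWDR5 replicates 2 or 3, BoM shCtrl replicates 1 or 3 or BoM shWDR5 replicates 2 or 3 (edgeR adjusted p up to 0.074). ZNF76, the close relative of ZNF143, was at 0.068 ± 0.074 and did not pass. Neither ZNF330 nor ZNF706 passed. The partners of KRAB proteins in heterochromatin gave 2 higher and 2 lower of 18 tested genes (11.1% each). CBX1 and HDAC2 were higher by 0.25 ± 0.048 and 0.23 ± 0.052, CBX3 and CHD4 had log2 fold changes of -0.56 ± 0.071 and -0.26 ± 0.10, and TRIM28 and SETDB1, at 0.20 ± 0.10 and 0.025 ± 0.060, did not pass.

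The tested ZNF genes below the floor had lower medians than the members, a difference that was not tested. The 210 ZNF genes below it had median log2 fold changes of -0.17, -0.18 and -0.12 in LM2, BrM3 and BoM and -0.15 in the mean. In the mean, 3 were called higher and 59 lower, or 1.43% and 28.1%, beside 15.6% and 19.9% of all tested genes. Of the 12081 tested genes, 8763 lay over the floor. These held 1662 of the 1880 genes called higher but only 1201 of the 2400 called lower. Tested genes below the floor were thus called lower more often than all tested genes. The shares of all tested genes are therefore no match for low counts, and these ZNF genes were not tested against others below the floor. In the mean over the lines, 35 ZBTB genes had a median of -0.049, 15 ZSCAN genes -0.11, 16 ZFP genes -0.13 and 14 KLF genes 0.12, with no floor on their counts beyond the filter.

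Between the lines with shCtrl, the members differed more than after knockdown, and most often LM2 had the higher level. In BrM3 against LM2, 25 members were called higher and 66 lower, or 13.4% and 35.3%, beside 24.2% and 23.4% of all tested genes. In BoM against LM2, 25 were called higher and 72 lower, beside 25.9% and 25.8%. In BoM against BrM3, 28 were called higher and 37 lower, beside 17.8% and 19.8%. The median log2 fold change of the members was -0.13, -0.20 and -0.024, beside 0.0087, -0.012 and -0.0023 over all tested genes. The rule bears on these numbers, because LM2 libraries held 44.1% of all counts and a gene with a higher level in LM2 reached a mean raw count of 500 more easily. Over the libraries of 1 line, the mean raw count was under 500 for 3 members in LM2 (ZNF521, ZNF114 and ZNF699), 38 in BrM3 and 68 in BoM, and the other 113 reached it in each line. With each library scaled to the same size before the floor, 180 members remained, all of them among the 187, and the counts were 25 higher and 61 lower for BrM3 and 25 and 69 for BoM against LM2. The ZNF genes below the floor had medians of -0.29 and -0.29 in these comparisons. Lower in both BrM3 and BoM than in LM2 were 47 members (25.1%), beside 15% of all tested genes, and higher in both were 12 (6.42%), beside 15.8%; the 2 comparisons share the LM2 libraries.

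ZNF521 showed the largest difference between lines among the members. It encodes 27 fingers, acts as a transcriptional cofactor in blood and bone progenitors, and recruits NuRD. With shCtrl it was at 2.27, 1.93 and 1.65 CPM in LM2, 34.6, 36.1 and 36.99 CPM in BrM3 and 50.5, 44.6 and 51.3 CPM in BoM. All BrM3 and BoM libraries lay above all LM2 libraries. The log2 fold change against LM2 was 4.24 ± 0.13 in BrM3 and 4.68 ± 0.13 in BoM, and it was 0.44 ± 0.11 for BoM against BrM3. ZNF521, ZNF114 and ZNF699 reached the floor through the lines in which they were high, with mean counts in LM2 of 110.0, 404 and 383, so that their differences from LM2 are descriptions and no test is given. ZNF114, a KRAB member with 3 fingers, was at 37.6, 34.2 and 36.8 CPM in BoM, 9.19, 6.56 and 7.11 CPM in LM2 and 7.29, 9.59 and 7.35 CPM in BrM3. BoM was the high line, by 2.26 ± 0.15 against LM2 and 2.17 ± 0.15 against BrM3, and LM2 and BrM3 overlapped. ZNF699, also with KRAB, was at 6.65, 5.78 and 5.35 CPM in LM2, 16.04, 16.8 and 16.7 CPM in BrM3 and 29.1, 12.5 and 14.2 CPM in BoM, where replicate 1 stood well above the others. Its log2 fold change against LM2 was 1.49 ± 0.29 in BrM3 and 1.67 ± 0.29 in BoM.

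In the opposite direction, ZNF41, an X-linked KRAB gene with 17 fingers, was at 28.5, 25.1 and 24.7 CPM in LM2, 10.4, 10.1 and 10.4 CPM in BrM3 and 10.5, 8.16 and 9.67 CPM in BoM. LM2 was the high line without overlap, and the log2 fold change was -1.34 ± 0.12 in BrM3 and -1.47 ± 0.12 in BoM as a description, since ZNF41 reached the floor through LM2 alone. ZNF592 fell likewise, from 144, 158 and 144 CPM in LM2 to 72.01, 79.9 and 73.7 CPM in BrM3 and 70.1, 62.7 and 61.8 CPM in BoM. Its partner ZNF687 had log2 fold changes of -0.39 ± 0.14 and -1.21 ± 0.14 against LM2 and its BrM3 call was lost without LM2 shCtrl replicates 2 or 3 or BrM3 shCtrl replicates 1 or 3 (edgeR adjusted p up to 0.12), whereas ZNF532 was higher in BrM3 by 0.94 ± 0.12 and at 0.023 ± 0.12 in BoM, where it did not pass. ZNF703, which also reached the floor through LM2 alone, had log2 fold changes of -1.08 ± 0.18 and -1.09 ± 0.18, and ZNF618 was lower in BoM, at -1.42 ± 0.15. ZNF512B was higher in BrM3, at 1.61 ± 0.19 against LM2. Of the 11 members of chromatin complexes, 2 were called higher and 6 lower in BrM3, and 2 and 7 in BoM, or 18.2% and 54.5% and 18.2% and 63.6%, beside 24.2% and 23.4% of all tested genes in BrM3 and 25.9% and 25.8% in BoM. Of the 7 that act on translation or RNA, 3 and 4 (42.9% and 57.1%) were called higher and 1 (14.3%) lower in each, and of the 12 activators or repressors 3 and 1 were called higher and 3 and 5 lower (25%, 8.33%, 25% and 41.7%). Among the activators or repressors, ZNF521 was counted as higher in both lines and ZNF703 as lower in both. Each reached the floor only through lines in which it was high, so these counts are descriptions.

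Position along chromosome 19 went with these differences. Of the 70 members there, 4 were called higher and 34 lower in BrM3 than in LM2, with a median of -0.36, whereas the 117 on other chromosomes gave 21 and 32 with a median of -0.064. The shares were 5.71% and 48.6% and 17.9% and 27.4%, beside 26.1% and 24.2% of the tested genes on chromosome 19 that are no ZNF gene. In BoM against LM2 the counts were 4 and 31 on chromosome 19 (median -0.31) and 21 and 41 elsewhere (-0.093), or 5.71% and 44.3% and 17.9% and 35.04%, beside 13.4% and 32.3% of the genes on chromosome 19 that are no ZNF gene. Members whose starts lay within 2 Mb of the next formed 8 groups along the chromosome. In the seventh, at chr19:48270081-53580269 with 14 members, 0 were called higher and 11 lower in BrM3 than in LM2, with a median of -0.87. In the eighth, at chr19:55635016-58475436 with 19 members, 0 were called higher and 13 lower, with a median of -0.69. The other tested genes inside these 2 intervals were also mostly called lower. Of 58 in the seventh, 2 were called higher and 34 lower (median -0.57), and of 18 in the eighth, 0 and 13 (median -0.65). The sixth group, at chr19:40069152-44500524 with 8 members, went the other way in BrM3, with a median of 0.28 for members and 0.23 for the 50 other genes, and in BoM against BrM3 7 of its 8 members and 25 of the 50 others were called lower. The first group, at chr19:8806170-12633840 with 13 members, showed no such match in BrM3, with a median of -0.037 and 2 higher and 1 lower members, while the 46 other genes had a median of 0.26 with 14 higher and 3 lower. In the third group, 6 members with 2 other tested genes between them, all 6 were called lower in BrM3 and 5 in BoM, with medians of -0.50 and -0.70. The 2 other genes were called lower in both lines as well, with medians of -0.60 and -0.68. Within the seventh group ZNF83, ZNF468 and ZNF528 had log2 fold changes of -1.15 ± 0.13, -1.15 ± 0.17 and -1.24 ± 0.11 in BrM3. ZNF528, one of the 11 called lower there, had a mean raw count of 507.8, just inside the floor. Its level was highest in LM2, the line with the most counts, so its difference is a description. Over the whole chromosome, the tested genes outside the ZNF family had medians of -0.071 in BrM3 and -0.25 in BoM against LM2.

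**Figure D4:**
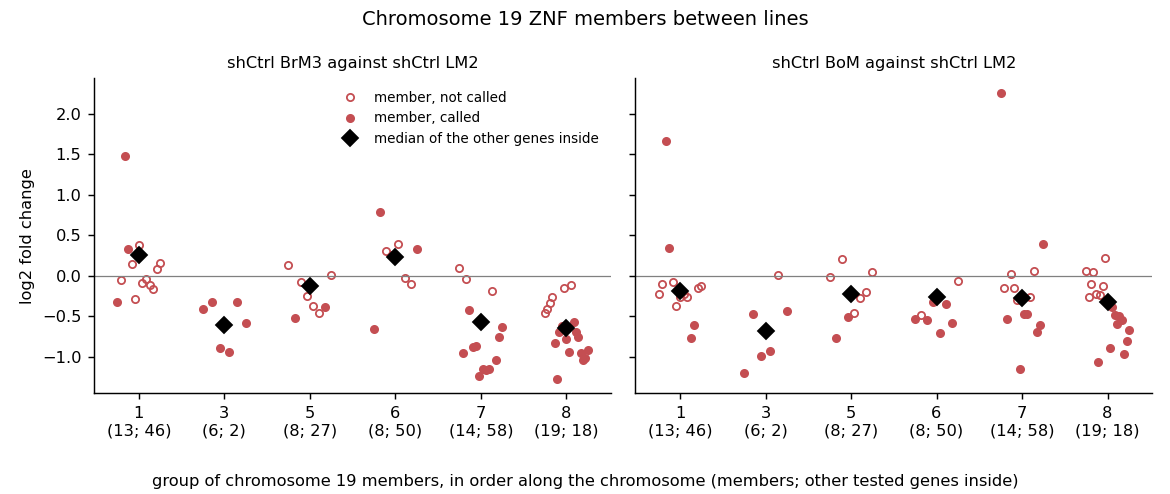
Log2 fold change between shCtrl lines (y axis) of chromosome 19 members in the 6 groups with at least 5 members, in order along the chromosome (x axis); filled points were called, diamonds are medians of the other tested genes inside each group. In BrM3 against LM2 the members and the diamonds of the seventh and eighth groups lie mostly below 0, with diamonds at -0.57 and -0.65, and those of the sixth mostly above.

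Dependence on GC content was examined because the libraries differed in it. The GC content of the members' transcripts had a median of 43.6% (range 35.6 to 70.4%) beside 47.5% over all tested genes. The slope of log2 CPM on GC content over all tested genes, per 10 percentage points, was -0.15, 0.18 and 0.24 in the LM2 shCtrl libraries, whereas the BoM shWDR5 libraries had slopes of -0.27, -0.16 and -0.17. Replicates of 1 group thus spanned much of the range, and in BoM the shWDR5 slopes (-0.20 ± 0.059, SD, n = 3) overlapped those of shCtrl (-0.064 ± 0.13). In BoM, the 63 members with the lowest GC content (up to 41.5%) had a median log2 fold change of 0.11 with shWDR5, the middle 62 0.053 and the 62 with the highest (above 47.1%) -0.0013. Other tested genes in the same GC ranges had medians of 0.15, 0.054 and -0.077, and those of them over the floor 0.17, 0.085 and -0.030. In that line 6 members of the lowest GC class were called higher, 4 of the middle and 0 of the highest, or 9.52%, 6.45% and 0%, beside 7.57%, 7.89% and 3.22% of the other tested genes. With the GC trend removed and centred, these became 7, 5 and 8, or 11.1%, 8.06% and 12.9%, beside 7.23%, 9.55% and 12.8%, and the medians became -0.048, 0.0036 and 0.084. Across the 187 members, Pearson's r between GC content and log2 fold change in BoM was -0.33, and 0.16 with the trend removed. In LM2 it was -0.12, and -0.025 with the trend removed, and in BrM3 0.023 and 0.28, so that in BrM3 the removal moved it away from 0. These are descriptions across genes of the same libraries, and genes are not independent replicates.

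In the mean over the lines these GC classes of members had medians of 0.010, 0.012 and 0.0078, while the other tested genes went from 0.062 to -0.044. Those of the others that passed the floor had 0.082, 0.065 and 0.0036. After the trend was removed the members' medians ran from -0.065 to 0.040 and those of all others stayed within -0.0058 and 0.0071. The trend was fitted on all tested genes, so that medians of all others near 0 follow from the fit. The others over the floor then had 0.016, 0.030 and 0.053, which also rose with GC content. The 4 genes called lower in all lines lay in all 3 classes of GC content, with 41.3% in ZNF302, 42.9% in ZNF558, 45.9% in ZNF514 and 62.7% in ZNF768. With the trend removed and centred, their mean log2 fold changes were -0.58, -0.52, -0.61 and -0.76. ZNF702P and ZNF804A, at 37.4% and 41.8% GC, stood at 0.55 and 0.36.

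**Figure D5:**
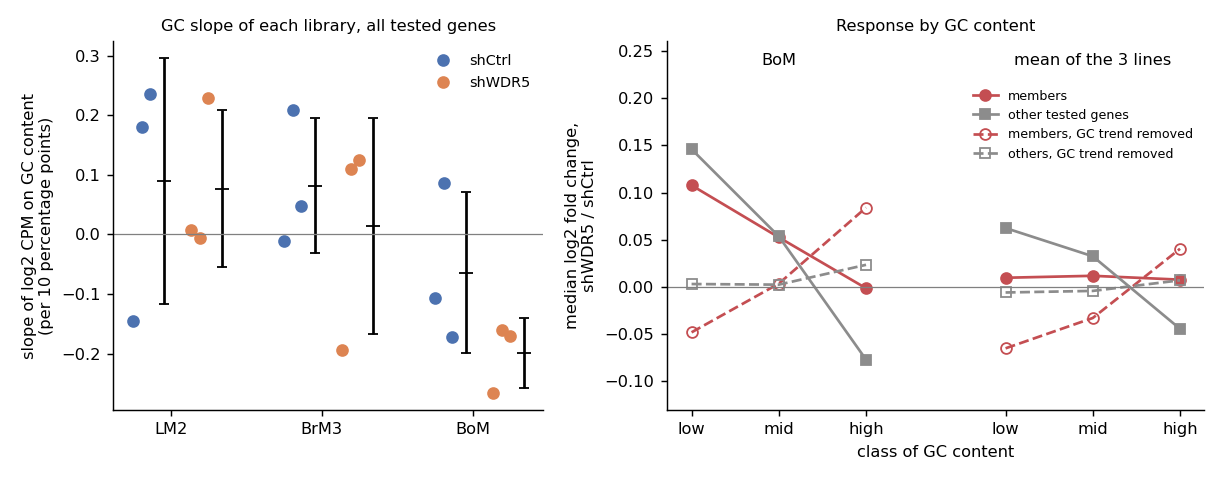
Left, slope of log2 CPM on GC content per 10 percentage points (y axis) in each library by line and hairpin, with the mean and SD of 3 replicates; right, median log2 fold change of shWDR5 against shCtrl (y axis) by class of GC content (x axis) for members and other tested genes, with and without removal of the GC trend. All 3 BoM shWDR5 slopes lie below 0, and the BoM medians of the members go from 0.11 to -0.0013 without the removal.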

How the data were processed

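Poly(A) RNA of 18 libraries was sequenced as stranded paired ends, and the authors deposited a table of raw read counts per gene for hg38, made with STAR 2.7.0. The strand setting of these counts is not given in the sources used here, and the table holds 0 rows of the spike-ins the protocol names. A further deposited table holds fold changes and p-values of the authors' own comparisons and was not used. The column names mark the shWDR5 libraries, and the remaining columns of each line were taken as shCtrl, the only other hairpin in the labels. Replicates were 3 per group. They differed by more than sampling noise in all 18 pairs (chi-square per gene 5.17 to 91.1), so each counted as 1. The HTSFilter criterion was recomputed from its description and kept 12081 of 58815 genes, with a threshold of 145.73 normalised counts on a linear grid. A single edgeR 4.0.16 quasi-likelihood fit (R 4.3.3, TMM scaling) held all 6 groups with 12 residual degrees of freedom, so that all shared an estimate of the spread, and p-values were adjusted by Benjamini-Hochberg over the tested genes. CPM values carry the TMM factors. GC content and length come from GENCODE 44 transcripts and were known for 99.84% of the tested genes. KRAB A boxes and C2H2 fingers were found by pattern in its translated coding sequences, where RefSeq proteins had been planned. The KRAB pattern was in 1 of 18633 other coding genes. The GC trend was a loess curve (span 0.5) for each library, removed as an offset. Its centring, which keeps the TMM scale of a library, and the linear grid of the filter were chosen after results were seen. Promoters are those of RefSeq. DESeq2 1.42.0, RLE scaling, filterByExpr, no filter, a replicate block, other floors and leaving out each library were the alternatives. Statistical scripts were tested on simulated data. Named were, of the members, the 6 called with the smallest adjusted p in each direction in each line and in their mean, those called alike in all lines, the 8 with the highest CPM per kilobase, those of the role lists, the 4 with the largest called difference in each direction between lines, and 3 on either side of the floor. The members, subsets and lists were chosen with earlier results of these data known.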

Additional observations from a re-analysis of the deposited data

How the results depend on the processing

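Each comparison was recomputed under the alternatives below, and values are given where a count of called members moved by over 1.5 times or another value by over the spread between replicates. The cause of these moves was not tested. DESeq2 gave 4 called higher in BrM3 (2.14%), beside 5.28% of the genes tested. With filterByExpr, which kept 18428 genes, the counts of called members were 2 higher in BrM3 (1.07%), beside 2.73% of the genes kept. With no expression filter, on 41236 genes, the counts of called members were 5 higher in LM2, 5 higher in BrM3, 18 higher in shCtrl BoM against BrM3. These were 2.67%, 2.67% and 9.63% of the members, beside 0.628%, 0.989% and 5.79% of the 41236 genes. That background holds every gene with at least 1 count, so it is no match for members chosen by a floor.

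As reported, the median of the highest GC class minus that of the lowest was -0.11 in BoM, -0.0020 in the mean of the lines, -0.14 in shCtrl BoM against LM2 and -0.24 in shCtrl BoM against BrM3. With the GC trend removed, the counts of called members were 8 higher and 11 lower in LM2, 17 higher and 12 lower in BrM3, 27 higher and 9 lower in BoM, 52 higher in the mean of the lines. The median of the highest GC class minus that of the lowest was 0.13 in BoM, 0.11 in the mean of the lines, -0.0018 in shCtrl BoM against LM2 and -0.14 in shCtrl BoM against BrM3. With the trend removed and centred, chosen after seeing the data, the counts of called members were 6 higher and 21 lower in LM2, 7 higher and 18 lower in BrM3, 20 higher and 14 lower in BoM, 38 lower in the mean of the lines. The median of the highest GC class minus that of the lowest was 0.13 in BoM, 0.11 in the mean of the lines, -0.0023 in shCtrl BoM against LM2 and -0.15 in shCtrl BoM against BrM3. Here 1 member, ZNF512B, was then called for the difference of the response between BrM3 and LM2, and 1 under each of the other fits that remove the trend.

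The replicate numbers do not pair the libraries by the labels, and 7 of 9 same-numbered pairs had deviations that correlated over 0.1 (range -0.178 to 0.729), while 6 of 9 shCtrl libraries correlated best with their own number. With the replicate block, the counts of called members were 6 higher and 7 lower in LM2, 7 higher and 12 lower in BrM3, 23 higher and 11 lower in BoM, 30 lower in the mean of the lines. The shares of all tested genes called higher and lower were then 3.86% and 8.01% in LM2, 6.29% and 12.6% in BrM3, 11.2% and 15% in BoM, 22.2% and 24.8% in the mean of the lines. For the members they were, in the same order, 3.21% and 3.74%, 3.74% and 6.42%, 12.3% and 5.88%, and 18.2% and 16.04%. With the replicate block and the GC trend removed, the counts of called members were 22 higher and 28 lower in LM2, 32 higher and 15 lower in BrM3, 43 higher and 14 lower in BoM, 63 higher and 32 lower in the mean of the lines, 38 higher in shCtrl BrM3 against LM2, 48 higher in shCtrl BoM against BrM3. The median of the highest GC class minus that of the lowest was 0.13 in BoM, 0.11 in the mean of the lines, -0.0052 in shCtrl BoM against LM2 and -0.14 in shCtrl BoM against BrM3. The shares of all tested genes called higher and lower were then 16.6% and 12.6% in LM2, 22.9% and 14.8% in BrM3, 24.1% and 16.4% in BoM, 37.3% and 23.7% in the mean of the lines. For the members they were, in the same order, 11.8% and 14.97%, 17.1% and 8.02%, 22.99% and 7.49%, and 33.7% and 17.1%. With the replicate block and the centred trend removed, chosen after seeing the data, the counts of called members were 13 higher and 34 lower in LM2, 14 higher and 21 lower in BrM3, 31 higher and 22 lower in BoM, 40 higher and 48 lower in the mean of the lines, 45 higher in shCtrl BrM3 against LM2, 66 lower in shCtrl BoM against BrM3. The median of the highest GC class minus that of the lowest was 0.13 in BoM, 0.11 in the mean of the lines, -0.0058 in shCtrl BoM against LM2 and -0.14 in shCtrl BoM against BrM3. The shares of all tested genes called higher and lower were then 11.8% and 15% in LM2, 13.2% and 19.5% in BrM3, 17.1% and 19.6% in BoM, 27.2% and 29.7% in the mean of the lines. For the members they were, in the same order, 6.95% and 18.2%, 7.49% and 11.2%, 16.6% and 11.8%, and 21.4% and 25.7%.

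With a floor of 250, which 300 members reached, the counts of called members were 9 lower in LM2, 15 lower in BrM3, 18 lower in BoM, 51 lower in the mean of the lines, 118 lower in shCtrl BrM3 against LM2, 120 lower in shCtrl BoM against LM2. The median of the highest GC class minus that of the lowest was 0.29 in shCtrl BrM3 against LM2 and 0.067 in shCtrl BoM against LM2. In the mean of the lines 8% and 17% of these members were higher and lower, beside 17.3% and 16.5% of the 10178 genes over the same floor. With a floor of 1000, which 81 members reached, the counts of called members were 0 higher and 1 lower in LM2, 1 lower in BrM3, 2 lower in BoM, 5 lower in the mean of the lines, 12 higher and 28 lower in shCtrl BrM3 against LM2, 12 higher and 30 lower in shCtrl BoM against LM2, 11 higher and 19 lower in shCtrl BoM against BrM3. The median of the highest GC class minus that of the lowest was -0.065 in shCtrl BrM3 against LM2, -0.57 in shCtrl BoM against LM2 and -0.37 in shCtrl BoM against BrM3. In the mean of the lines 19.8% and 6.17% of these members were higher and lower, beside 21.5% and 10.3% of the 6864 genes over the same floor.

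With 1 library left out, the counts ranged over 1 to 3 higher and 0 to 5 lower in LM2, 0 to 2 higher and 1 to 13 lower in BrM3, 2 to 13 higher and 2 to 8 lower in BoM, 19 to 27 higher and 15 to 24 lower in the mean of the lines, 18 to 29 higher and 55 to 70 lower in shCtrl BrM3 against LM2, 19 to 28 higher and 56 to 76 lower in shCtrl BoM against LM2, 21 to 34 higher and 26 to 39 lower in shCtrl BoM against BrM3, and the difference between the highest and lowest GC classes over -0.14 to 0.061 in LM2, -0.061 to 0.31 in BrM3, -0.20 to -0.043 in BoM, -0.060 to 0.083 in the mean of the lines, -0.040 to 0.20 in shCtrl BrM3 against LM2, -0.32 to -0.041 in shCtrl BoM against LM2, -0.29 to -0.16 in shCtrl BoM against BrM3. The 3 differences of the response between lines stayed at 0 called members in all 18 such fits. A group left with 2 libraries borrows its spread from the others.

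Among the 156 results for single named members, none changed direction under any alternative, and 54 lost their call in at least 1 fit with a library left out. Lost calls numbered 0 with DESeq2, with log-spaced filter thresholds and with the replicate block, 1 with RLE scaling, 2 and 4 with the GC trend removed without and with centring, 7 with filterByExpr and 18 with no filter, where more genes are tested. The totals of 17485841 to 119667013 counts bound the precision unequally among libraries.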
